A study of Mus musculus with 10 samples.

Results

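Car4, Calcr, Itgb8, Fndc3c1, Kcnh8, Dynap, Eya4 and Fibin are 8 genes gained in mouse epiblast stem cells (EpiSC), and their levels were followed in 10 RNA-seq libraries of 4 cell types. They were chosen by the measured rise in EpiSC over embryonic stem cells (ESC) or over epiblast-like cells (EpiLC), as genes among the largest rises of the 54532 in the tables. Their differences between these cells are therefore described and not tested. Most of them encode proteins of the cell surface or secreted proteins. Eya4 is an exception, since EYA4 is a transcriptional coactivator and phosphatase inside the cell.

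The series accompanied a screen in haploid EpiSC for modulators of reprogramming, and every library was labelled with the strain 129SV. EpiSC gave 5 libraries, namely 2 labelled haploid p53-KO (the lines haEpi1 and haEpi5), 1 labelled diploid p53-KO and 2 labelled diploid wild type, whose titles were read as female and male. There were 2 EpiLC libraries, a haploid p53-KO one and a haploid wild-type one by their labels, ESC gave 1 labelled haploid wild type and 1 labelled diploid wild type, and mouse embryonic fibroblasts (MEF) gave 1 labelled diploid wild type. The design text speaks of triplicates, and 10 libraries were used here, so a mean over a cell type pools ploidies and p53 labels and most labelled groups hold 1 library. Replicates of a group are different lines or sexes, and nothing in the labels says whether they were separate experiments, so SDs and p-values measure the spread between these libraries.

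As background, EpiSC are self-renewing lines from the post-implantation epiblast and stand for primed pluripotency, ESC stand for the naive state of the pre-implantation embryo, and EpiLC are a passing state reached when ESC leave naive culture. Cells at these stages differ in the proteins they carry outward. Carbonic anhydrase IV (Car4) is an enzyme held on the outer membrane that interconverts carbon dioxide and bicarbonate, the calcitonin receptor (Calcr) is a G protein-coupled hormone receptor whose ligand choice is set by RAMP partners, and integrin beta-8 (Itgb8) pairs with the alpha-v chain and frees TGF-beta from its latent complex. Kcnh8 encodes a voltage-gated potassium channel, Dynap a membrane protein that binds dynactin, Fndc3c1 a protein with fibronectin type III domains, and Fibin a secreted protein first described in fin bud development of the zebrafish.

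Promoter letters are shown for Car4, already on in EpiLC, and for Calcr, low in EpiLC and high in EpiSC, because these genes separate the patterns described below and their windows hold the fewest annotated exon bases. Each run is the 250 bases before a transcription start in RefSeq (GRCm38.p6), 5′ to 3′, with the dinucleotide CG in capitals.
Car4, chr11:84957504-84957753, plus strand: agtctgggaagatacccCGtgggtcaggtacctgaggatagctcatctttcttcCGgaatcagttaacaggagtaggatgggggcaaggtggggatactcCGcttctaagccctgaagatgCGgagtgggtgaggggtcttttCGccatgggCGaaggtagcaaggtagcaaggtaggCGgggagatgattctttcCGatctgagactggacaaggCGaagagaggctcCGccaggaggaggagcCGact
Calcr, start site at the outer end of the gene, chr6:3764714-3764963, minus strand: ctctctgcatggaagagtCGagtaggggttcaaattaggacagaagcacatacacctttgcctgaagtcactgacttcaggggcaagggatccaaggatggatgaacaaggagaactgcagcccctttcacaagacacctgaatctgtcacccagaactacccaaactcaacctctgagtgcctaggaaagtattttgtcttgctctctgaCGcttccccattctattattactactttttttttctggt
Calcr, start site within the gene, chr6:3763624-3763873, minus strand: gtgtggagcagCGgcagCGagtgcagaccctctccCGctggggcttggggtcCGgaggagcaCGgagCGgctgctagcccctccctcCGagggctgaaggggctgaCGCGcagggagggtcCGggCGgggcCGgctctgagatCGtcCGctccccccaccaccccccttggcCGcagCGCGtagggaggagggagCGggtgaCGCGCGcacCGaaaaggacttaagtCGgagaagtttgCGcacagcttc
The Car4 window held 11 CG dinucleotides, the outer Calcr window 2 and the inner Calcr window 24, against a median of 6 over 32536 distinct windows of the same length. Among the other windows, Fibin had 7 CG, Itgb8 12, Fndc3c1 14, Kcnh8 20 and the Eya4 start sites 35 and 25. RefSeq windows were given for 7 of the 8 genes, Dynap being the other one, and over 30 bases of the windows of 5 genes fell in exons of GENCODE vM21. On either strand, the TATA box letters TATAAA (present in 12.3% of all windows), the octamer ATGCAAAT (1.62%), the SOX letters ATTGTT (9.35%), the OTX letters TAATCC (6.25%) and the E-box CACGTG (6.04%) were found in none of these windows. The CCAAT box, whose letters CCAAT occur in 33.8% of all windows, was found in the Itgb8 window, 126 bases before the start. No window thus shared a searched motif with another, and the CG count did not sort the genes by whether they were on in EpiLC.

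Total counts lay between 15862113 and 18814003 per library, and no batch or date is given in the labels. Levels are the deposited FPKM (fragments per kilobase of gene, scaled by 1 constant per library), with 95% Poisson intervals in the plots that cover counting error only. The library constants did not follow the total counts. A gene is called on at 1 FPKM, and where all libraries of a cell type had 0 counts, a fold over it is a bound from a floor of 3 counts per library. Where 1 library of a cell type had counts, a library at 0 entered the mean as 0. Trp53, the gene named in the p53-KO labels, had 12.1 and 14.8 FPKM in haEpi1 and haEpi5, 0.514 FPKM in diploid p53-KO EpiSC and 8.0 FPKM in p53-KO EpiLC, against 8.89 FPKM in the library labelled female wild-type EpiSC, 7.14 FPKM in the library labelled haploid wild-type ESC and 33.0 to 93.4 FPKM in the other libraries labelled wild type. The Trp53 level thus did not separate the labels, the sources used here do not give the kind of knockout allele, and p53-KO and wild type below are the labels. Summed naive markers (8 genes) lay at 4.29 to 39.2 FPKM in EpiSC, 1289 to 1294 FPKM in EpiLC and 1006 to 2332 FPKM in ESC, and post-implantation epiblast markers (6 genes) at 205 to 353 FPKM in EpiSC, 262 to 813 FPKM in EpiLC and 74.3 to 88.2 FPKM in ESC. Most of the naive sum in EpiLC was Dppa5a (1097 and 1262 FPKM), and 8 naive markers were on in the p53-KO EpiLC library against 5 in the wild-type EpiLC library.

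Among EpiSC, EpiLC and ESC, the genes fell into a pair on in EpiLC, a gene partly there and 5 that were on in EpiSC alone. Car4 and Fndc3c1 were on in all 5 EpiSC libraries and both EpiLC libraries. Kcnh8 was on in 3 EpiSC libraries and reached 0.731 FPKM in the wild-type EpiLC library. Calcr and Fibin were on in 5 EpiSC libraries, Itgb8, Dynap and Eya4 in 4, and none of these 5 in an EpiLC library. No gene was on in ESC, whereas Itgb8, Eya4 and Fibin were on in MEF, so the last 3 were not confined to EpiSC. In bulk RNA, fewer cells with a transcript and less RNA per cell cannot be told apart.

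**Figure D1:**
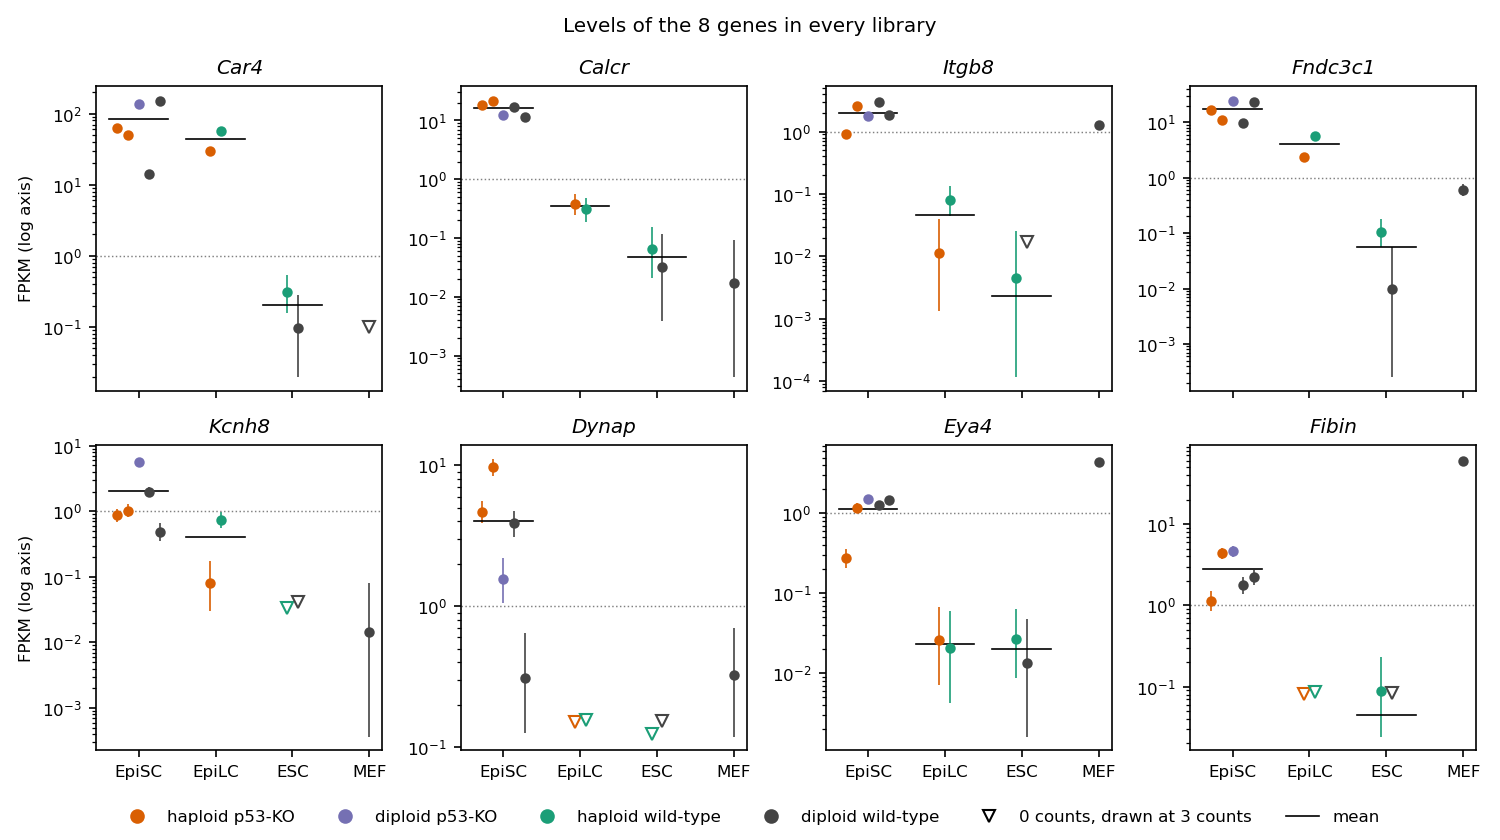
FPKM of each of the 8 genes in every library, on a log axis, by cell type with EpiSC at the left; points are libraries coloured by label, vertical bars are 95% Poisson intervals, open triangles are counts of 0 drawn at 3 counts, horizontal lines are means and the dotted line is 1 FPKM. All EpiSC points lie above all ESC points, Car4 and Fndc3c1 are above the dotted line in EpiLC, and Itgb8, Eya4 and Fibin are above it in MEF.

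The EpiSC libraries stood above both ESC libraries without overlap for 8 of 8 genes, which is how they were chosen, beside 15.5% of the 21104 genes tested (edgeR called 16.9% of them changed, 6.86% up and 10.1% down). Against EpiLC, 6 of 8 genes did not overlap, beside 15.4% of genes, and the exceptions were Car4 and Kcnh8. EpiLC lay above ESC without overlap for 5 of 8 genes, Car4, Calcr, Itgb8, Fndc3c1 and Kcnh8, beside 19.1% of genes. For Itgb8 this rests on 2 counts in p53-KO EpiLC against 1 in haploid ESC, whose counting intervals overlap. ESC and EpiLC levels also entered the choice of the genes, so these counts are no separate result. By the fitted rise over ESC the genes stood at ranks 1 (Kcnh8), 3 (Dynap), 4 (Itgb8), 13 (Car4), 21 (Calcr), 27 (Fndc3c1), 135 (Fibin) and 143 (Eya4) of those 21104. By the rise over EpiLC the ranks were 1 (Fibin), 2 (Dynap), 131 (Eya4), 139 (Calcr), 156 (Itgb8), 1626 (Kcnh8), 1887 (Fndc3c1) and 4584 (Car4). Ranks at the head of both orders depend on the fit's handling of 0 counts. Kcnh8 and Dynap had 0 counts in both ESC libraries, Itgb8 had 1 ESC count, and Fibin and Dynap had 0 counts in both EpiLC libraries.

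Car4 (ENSMUSG00000000805, chr11:84957786-84966044, mm10) was the most abundant of the 8 in EpiSC. It had 63.2 and 50.1 FPKM in haEpi1 and haEpi5, 134 FPKM in diploid p53-KO EpiSC, and 14.2 and 151 FPKM in the female and male wild-type EpiSC libraries. In EpiLC it had 29.4 FPKM in the p53-KO and 57.6 FPKM in the wild-type library, against 0.309 and 0.0955 FPKM in haploid and diploid ESC and 0 counts in MEF. Both EpiLC values lay inside the EpiSC range, the p53-KO value above the female EpiSC library alone and the wild-type value between haEpi5 and haEpi1. The mean was 82.6 ± 58.1 FPKM in EpiSC (SD, n = 5) and 43.5 ± 19.97 FPKM in EpiLC (SD, n = 2), against 0.202 ± 0.151 FPKM in ESC (SD, n = 2). EpiSC and EpiLC thus did not differ beyond their spread, the EpiLC mean being 52.7% of the EpiSC mean, and the ratio of means over ESC was 408 for EpiSC and 215 for EpiLC. Over MEF the EpiSC mean was at least 819-fold higher, from the 3-count floor of that library.

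Fndc3c1 (ENSMUSG00000033737, chrX:106420041-106485401) shared the presence in EpiLC at a lower share. It had 16.4 and 11.2 FPKM in haEpi1 and haEpi5, 24.4 FPKM in diploid p53-KO EpiSC, and 9.58 and 23.5 FPKM in the female and male EpiSC libraries. EpiLC followed with 2.39 FPKM in the p53-KO and 5.58 FPKM in the wild-type library, against 0.104 and 0.00991 FPKM in haploid and diploid ESC and 0.607 FPKM in MEF. The 4 cell types did not overlap, in the order EpiSC, EpiLC, MEF and ESC. The means were 17.0 ± 6.82 FPKM in EpiSC (SD, n = 5) and 3.99 ± 2.26 FPKM in EpiLC (SD, n = 2), or 23.4% of EpiSC, against 0.0571 ± 0.0667 FPKM in ESC (SD, n = 2). The ratio of means was 298 over ESC, 4.27 over EpiLC and 28.0 over MEF.

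Kcnh8 (ENSMUSG00000035580, chr17:52602709-52979194) was found in every EpiSC and EpiLC library and in neither ESC library. It had 0.875 and 1.03 FPKM in haEpi1 and haEpi5, 5.66 FPKM in diploid p53-KO EpiSC, and 1.999 and 0.491 FPKM in the female and male EpiSC libraries. The EpiLC libraries had 0.0815 FPKM (p53-KO, 6 counts) and 0.731 FPKM (wild type, 52 counts), against 0 counts in both ESC libraries and 1 count in MEF. The wild-type EpiLC library thus lay above the male EpiSC library, so the cell types overlapped. With a mean of 2.01 ± 2.12 FPKM (SD, n = 5), EpiSC were at least 53.9-fold higher than ESC, and EpiLC at least 10.9-fold higher than ESC, from the 3-count floors of the ESC libraries. The ratio of EpiSC over EpiLC was 4.95.

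Calcr (ENSMUSG00000023964, chr6:3685680-3764714) was the steadiest of the 8 among EpiSC. Its levels were 18.4 and 21.3 FPKM in haEpi1 and haEpi5, 12.4 FPKM in diploid p53-KO EpiSC, and 16.6 and 11.5 FPKM in the female and male EpiSC libraries. The EpiLC libraries had 0.380 FPKM (p53-KO) and 0.311 FPKM (wild type), against 0.0647 and 0.0320 FPKM in haploid and diploid ESC and 1 count in MEF. Transcripts of the receptor were therefore present in EpiLC above ESC, at 2.15% of the EpiSC mean. The mean of 16.1 ± 4.11 FPKM in EpiSC (SD, n = 5) was 332 times the ESC mean and 46.5 times the EpiLC mean. ESC and MEF could not be ordered, as their counting intervals overlapped.

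Itgb8 (ENSMUSG00000025321, chr12:119158022-119238802) was low in EpiSC and nearly absent from ESC. It had 0.932 and 2.53 FPKM in haEpi1 and haEpi5, 1.78 FPKM in diploid p53-KO EpiSC, and 2.98 and 1.83 FPKM in the female and male EpiSC libraries. EpiLC had 0.0112 FPKM (p53-KO, 2 counts) and 0.0811 FPKM (wild type, 14 counts), against 1 count in haploid ESC, 0 counts in diploid ESC and 1.29 FPKM in MEF. The MEF value fell inside the EpiSC range, above haEpi1 and below the other 4 libraries. The EpiSC mean of 2.01 ± 0.785 FPKM (SD, n = 5) was 43.5 times the EpiLC mean and 1.56 times the MEF value. Over ESC the ratio was 878, with a counting interval of 158 to 34700 because it rests on 1 ESC count, diploid ESC being entered as 0.

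Dynap (ENSMUSG00000024512, chromosome 18) had the widest span of the 8 across EpiSC, its highest library being at 31.0 times its lowest. It had 4.68 and 9.65 FPKM in haEpi1 and haEpi5, 1.55 FPKM in diploid p53-KO EpiSC, and 3.86 and 0.311 FPKM in the female and male EpiSC libraries. All 4 EpiLC and ESC libraries had 0 counts, and MEF had 0.323 FPKM (6 counts). The male EpiSC library, with 7 counts, was thus level with MEF. The mean of 4.01 ± 3.61 FPKM in EpiSC (SD, n = 5) was at least 26.1-fold higher than in EpiLC and at least 29.0-fold higher than in ESC, from the 3-count floors.

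Eya4 (ENSMUSG00000010461, chr10:23102963-23350786) was on in 4 EpiSC libraries and at its highest in MEF. Its EpiSC levels were 0.279 and 1.17 FPKM in haEpi1 and haEpi5, 1.495 FPKM in diploid p53-KO EpiSC, and 1.27 and 1.47 FPKM in the female and male libraries. The EpiLC libraries had 0.0263 FPKM (p53-KO, 4 counts) and 0.0204 FPKM (wild type, 3 counts), against 0.0269 and 0.0133 FPKM in haploid and diploid ESC. EpiLC and ESC overlapped, and the order of the 4 cell types was MEF, EpiSC, then EpiLC and ESC together. The EpiSC mean was 1.14 ± 0.498 FPKM (SD, n = 5), or 48.6 times the EpiLC mean and 56.5 times the ESC mean. MEF had 4.41 FPKM and stood above every EpiSC library.

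Fibin (ENSMUSG00000074971, chr2:110360917-110363183) showed the same order with a wider gap to MEF. It had 1.14 and 4.39 FPKM in haEpi1 and haEpi5, 4.64 FPKM in diploid p53-KO EpiSC, and 1.76 and 2.24 FPKM in the female and male EpiSC libraries. Both EpiLC libraries had 0 counts, against 0.0893 FPKM (4 counts) in haploid ESC, 0 counts in diploid ESC and 60.3 FPKM in MEF. Its EpiSC mean of 2.83 ± 1.59 FPKM (SD, n = 5) was at least 34.0-fold higher than in EpiLC. It was 63.4 times an ESC mean that rests on the 4 counts of haploid ESC, with diploid ESC entered as 0. The MEF value was 21.3 times the EpiSC mean.

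**Figure D2:**
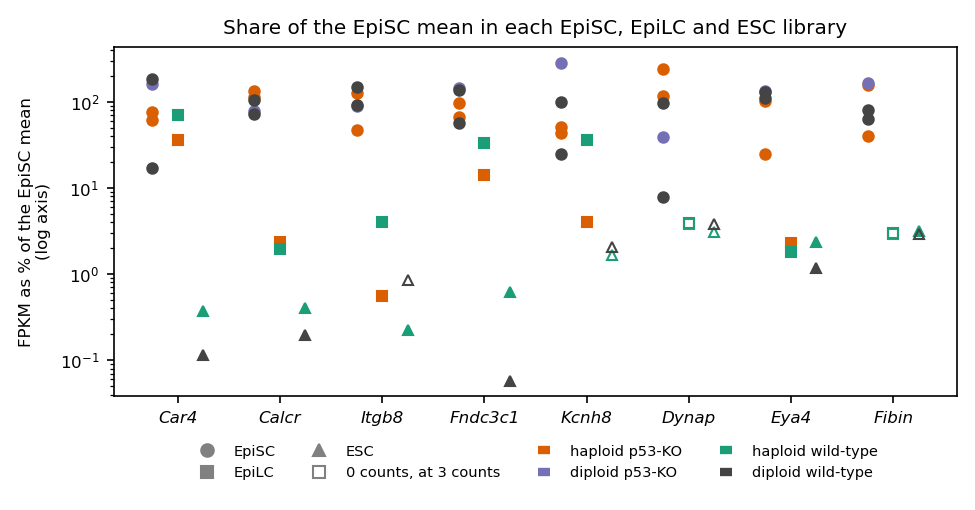
FPKM of each gene in each EpiSC (circles), EpiLC (squares) and ESC (triangles) library as a percent of that gene's EpiSC mean, on a log axis, with counts of 0 drawn open at 3 counts and colours for the labels. The EpiLC means are at 52.7% for Car4, 23.4% for Fndc3c1 and 20.2% for Kcnh8, and at 2.06% to 2.30% for Calcr, Itgb8 and Eya4; Dynap and Fibin are open in EpiLC.

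Because Itgb8, Eya4 and Fibin were also on in fibroblasts, their levels were set beside the 12 fibroblast markers. The summed markers lay at 95.2 to 245 FPKM in EpiSC, 6.79 to 17.6 FPKM in EpiLC, 149 and 3.83 FPKM in haploid and diploid ESC and 8171 FPKM in MEF, and 9 to 12 of 12 were on in each EpiSC library, with none at 0. As a percent of MEF, Fibin was at 1.89 and 7.28% in haEpi1 and haEpi5, 7.70% in diploid p53-KO EpiSC, and 2.92 and 3.71% in the female and male EpiSC libraries, while the marker sum was at 1.67, 3.00, 1.83, 1.36 and 1.17% in the same order. Fibin was above the sum in all 5, but 82.8% of the sum in MEF came from Col1a1, Col1a2 and Col3a1, and single markers spread widely. Of the 12 markers, 8 stood above Fibin as a percent of MEF in haEpi1, 5 in haEpi5, none in diploid p53-KO EpiSC, 5 in the female and 3 in the male library. The median marker was at 3.83 and 4.42% in haEpi1 and haEpi5, 1.83% in diploid p53-KO EpiSC, and 2.56 and 1.07% in the female and male libraries. Dcn and Twist2 were among the higher markers. Dcn, the gene of the matrix proteoglycan decorin, was at 15.0 and 25.7% in haEpi1 and haEpi5, 4.69% in diploid p53-KO EpiSC, and 10.6 and 3.78% in the female and male libraries, and the transcription factor gene Twist2 reached 81.5% in haEpi5. The haploid ESC library had the marker sum at 1.82% of MEF, with Col1a1, a chain of type I collagen, at 2.37%, and Fibin at 0.148%, below all 12 markers. Eya4 lay at 6.32% to 33.9% of MEF in EpiSC and Itgb8 at 72.2% to 231%. Above Eya4 stood 3 of the 12 markers in haEpi1, 1 in haEpi5 and none in the diploid p53-KO, female or male library. The part of fibroblast-like cells in the Fibin and Eya4 levels was not tested. Over the 8 genes, EpiSC stood above MEF without overlap for 4 (28% of genes) and below it for 2, Eya4 and Fibin (33.3% of genes).

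**Figure D3:**
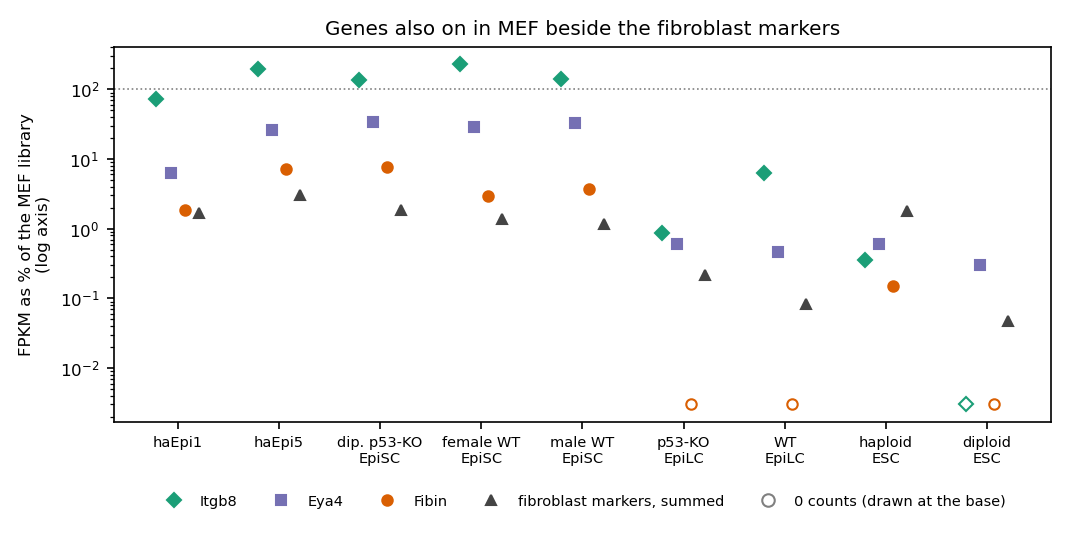
Itgb8, Eya4, Fibin and the summed 12 fibroblast markers in each EpiSC, EpiLC and ESC library as a percent of the MEF library, on a log axis with counts of 0 drawn open at the base. In the EpiSC libraries Fibin (1.89% to 7.70%) lies above the marker sum (1.17% to 3.00%), of which 82.8% in MEF is 3 collagen genes, and in haploid ESC it lies below it (0.148% against 1.82%).

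The 8 genes varied more between EpiSC libraries than most genes did. The coefficient of variation over the 5 libraries was 105% for Kcnh8, 89.9% for Dynap, 70.3% for Car4, 56.0% for Fibin, 43.8% for Eya4, 40.0% for Fndc3c1, 39.1% for Itgb8 and 25.6% for Calcr. The median over the 13089 genes of at least 1 FPKM on average was 22.6%, and the 8 genes lay between the percentiles 57.7 (Calcr) and 98.2 (Kcnh8) of those genes. Those genes were not matched to the 8 for level, and in the male EpiSC library Dynap had 7 counts and Kcnh8 41. The 8 genes did not vary as 1 block. Calcr and Dynap put the libraries in 1 order, highest in haEpi5, then haEpi1, female, diploid p53-KO and male. Car4 and Fndc3c1 were high in the male and diploid p53-KO libraries and lowest in the female library, which also had the primitive streak markers (6 genes) at 24.2 FPKM summed, against 2.08 to 3.56 FPKM in the other EpiSC libraries. Most of that sum was the streak gene T (brachyury), at 19.6 FPKM against 0.0471 to 0.693 FPKM, while Eomes was at 2.63 against 0.924 to 1.99 FPKM and Mixl1, Gsc and Mesp1 were under 0.3 FPKM. Itgb8, Eya4 and Fibin were lowest in haEpi1. The naive marker sum was also highest in the female library, at 39.2 FPKM, against 21.4 and 15.3 FPKM in haEpi1 and haEpi5. This sum was lowest in the diploid p53-KO (4.29 FPKM) and male (5.695 FPKM) libraries, where Car4 and Fndc3c1 were high. Most of the female sum was the single gene Nr0b1, at 31.7 FPKM. Nr0b1 was at 13.5 and 5.63 FPKM in haEpi1 and haEpi5, and 1.085 and 0.121 FPKM in the diploid p53-KO and male libraries. Of the other naive markers, Zfp42 was lowest in the female library (0.198 FPKM) and Esrrb highest there (1.76 FPKM). The naive sum thus does not rank the libraries by naive markers in general. The part of the streak gene and naive marker levels in the female library's values was not tested.

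These differences among EpiSC were not used to choose the genes and were tested over all 18153 genes past the low-count filter with edgeR's quasi-likelihood test. edgeR called none of the 8 genes between the labelled EpiSC groups in the 3 comparisons, and no other gene (0% called). With so few libraries per group, a missing call does not show that a gene was unchanged. The comparisons were haploid p53-KO against wild type, haploid against diploid p53-KO, and diploid p53-KO against wild type. In that order, 641, 1007 and 700 genes had an unadjusted edgeR p under 0.05, and DESeq2 called 22, 268 and 135. Of the 8 genes, the channel gene Kcnh8 had the lowest edgeR p. It stood at 0.950 ± 0.106 FPKM in haploid p53-KO EpiSC (SD, n = 2) against 5.66 FPKM in the diploid p53-KO library. Its log2 fold change was -2.57 ± 0.77 (SE), with an edgeR adjusted p of 0.801 and an unadjusted p of 0.0139, lower in 2 of 2 libraries. By DESeq2 the adjusted p was 0.0499, and edgeR gave 0.0405 without the female and 0.017 without the male wild-type library, and 0.00945 without the low-count filter. The call for Kcnh8 therefore turned on the method, the low-count filter and the wild-type libraries kept, which are in neither compared group. Without 1 of these, only haEpi1 and haEpi5 gave a spread within a group. The call also rests on 1 diploid p53-KO library.

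For Dynap the haploid p53-KO libraries averaged 7.17 ± 3.52 FPKM against 2.09 ± 2.51 FPKM in wild-type EpiSC (SD, n = 2 each), a log2 fold change of 1.79 ± 1.04 (SE, edgeR adjusted p = 0.976). Calcr had 19.9 ± 2.04 FPKM in haploid p53-KO EpiSC against 14.1 ± 3.64 FPKM in wild-type EpiSC (SD, n = 2 each), a log2 fold change of 0.51 ± 0.27 (SE, edgeR adjusted p = 0.976). Neither passed the threshold, although the libraries did not overlap. Car4 differed between the wild-type libraries themselves more than between groups. Its log2 fold change in diploid p53-KO over wild-type EpiSC was 0.70 ± 1.07 (SE, edgeR adjusted p = 1), and 3.25 when the male library was left out. The female library alone then stood for wild type, so the 3.25 compares 1 library with 1 and has no spread in either group. Libraries of the groups did not overlap for 3 of 8 genes in haploid p53-KO against wild-type EpiSC (32.5% of all genes), 7 of 8 in haploid against diploid p53-KO EpiSC (68.5%) and 5 of 8 in diploid p53-KO against wild-type EpiSC (63.1%).

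**Figure D4:**
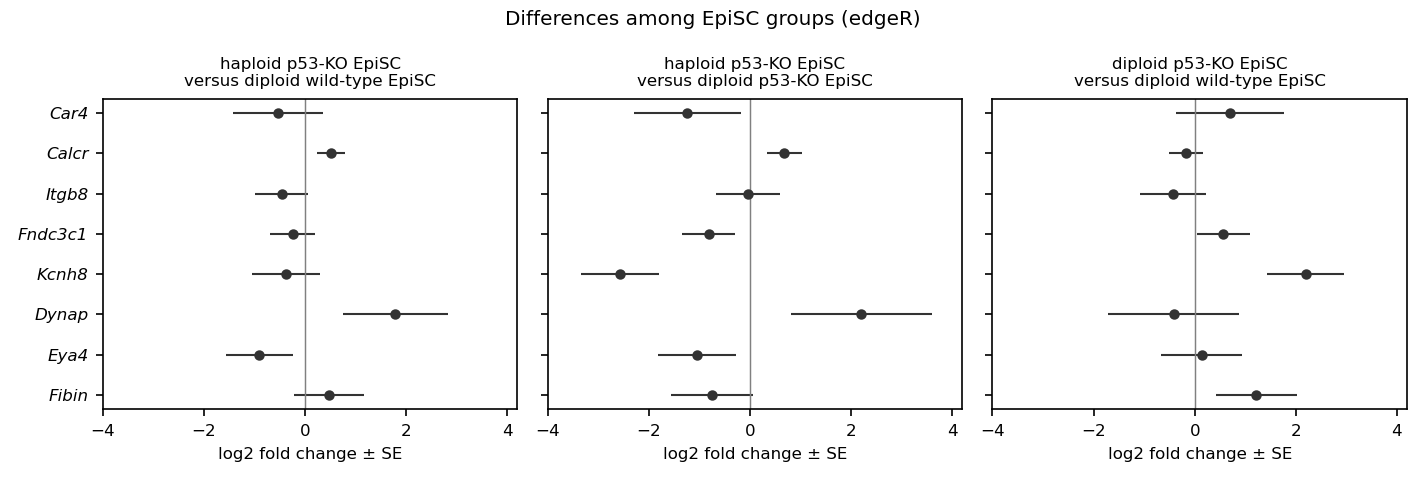
Log2 fold changes of the 8 genes in the 3 comparisons among EpiSC, from edgeR over all genes, with horizontal bars of 1 SE. Kcnh8 is farthest from 0 in haploid against diploid p53-KO EpiSC (-2.57), and no gene passed the adjusted threshold in any panel.

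In EpiLC, 1 library labelled p53-KO was set against 1 labelled wild type, with no test. Of the 5 genes with at least 10 counts in either, 4 were lower in the p53-KO library with counting intervals apart, beside 28.2% of 16928 genes lower and 29.5% higher by that measure. The ratio of p53-KO over wild type was 0.51 for Car4, 0.428 for Fndc3c1, 0.138 for Itgb8 and 0.111 for Kcnh8. Itgb8 (2 against 14 counts) and Kcnh8 (6 against 52 counts) passed the limit of 10 counts through the wild-type library alone. That limit favoured a lower p53-KO value for both, so their direction adds little to the count of 4. Calcr had a ratio of 1.22 with overlapping intervals. The p53-KO EpiLC library also had the post-implantation marker sum at 262 FPKM against 813 FPKM in the wild-type EpiLC library. Most of the wild-type sum was Dnmt3b, at 580 FPKM against 125 FPKM in p53-KO, while Nodal was higher in p53-KO (41.9 against 23.9 FPKM). The naive marker sums were alike, at 1294 FPKM in p53-KO and 1289 FPKM in wild type. Within them Esrrb, a naive transcription factor, was at 30.2 against 2.77 FPKM, and Dppa5a went the other way (1097 against 1262 FPKM). The part of these marker differences in the 4 ratios was not tested.

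Relatives of the 8 genes and members of their pathways, 70 genes in 7 lists of which 66 were tested, were counted in the fit of all 10 libraries. Against ESC, 15 rose and 2 fell in EpiSC, beside 6.86% of all genes up and 10.1% down, and their median log2 fold change was 0.77 against -0.02 over all genes. Against EpiLC, 12 rose and 2 fell, beside 3.77% up and 5.88% down, with a median of 1.13 against 0.01. Between EpiLC and ESC only Calca passed the threshold (0.317% of genes up, 0.109% down). Against MEF, 7 rose and 10 fell, beside 5.93% up and 8.79% down. These counts rest on few libraries. Without the diploid ESC library 7 passed against ESC, and against EpiLC 4 passed without the p53-KO EpiLC library, 5 without the wild-type EpiLC library, 8 without haEpi1 and 9 without the diploid p53-KO EpiSC library. With wild-type libraries alone none passed in any of the 4 comparisons.

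Relatives and partners of the calcitonin receptor were among those that rose. Of 8 tested genes of that family 3 rose against ESC and none fell. Ramp3, whose protein turns the calcitonin receptor into an amylin receptor, had 43.8 ± 7.26 FPKM in EpiSC (SD, n = 5) against 3.85 ± 2.13 FPKM in ESC (SD, n = 2), a log2 fold change of 3.54 ± 0.41 (SE, edgeR adjusted p = 0.000763). Calca, the gene of calcitonin and of calcitonin gene-related peptide, had 11.3 ± 1.80 FPKM in EpiSC (n = 5) and 17.3 ± 8.92 FPKM in EpiLC (n = 2) against 1.31 ± 0.408 FPKM in ESC (n = 2, all SD). Its log2 fold change was 3.14 ± 0.44 for EpiSC over ESC (adjusted p = 0.00183) and 3.75 ± 0.48 for EpiLC over ESC (adjusted p = 0.0249). Calca was thus on in EpiLC, where Calcr stood at 2.15% of its EpiSC mean. Calcrl, the related receptor, rose by a log2 fold change of 3.92 ± 0.98 against ESC (adjusted p = 0.0235) at 0.571 ± 0.246 FPKM in EpiSC. Against EpiLC the genes that rose were Ramp3 (2.14 ± 0.37, adjusted p = 0.00887) and Adm, which encodes adrenomedullin (4.44 ± 1.08, adjusted p = 0.0322).

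Among 13 carbonic anhydrases tested, 5 rose and 1 fell against ESC. Car14, like Car4 a membrane enzyme, had 13.8 ± 6.25 FPKM in EpiSC (SD, n = 5) against 0.421 ± 0.108 FPKM in ESC (SD, n = 2), a log2 fold change of 5.07 ± 0.83 (SE, edgeR adjusted p = 0.00377). Car9, a membrane enzyme induced in hypoxia, rose by 3.17 ± 0.72 (adjusted p = 0.0156). Car8, which lacks enzyme activity, fell to 0.0880 ± 0.0845 FPKM in EpiSC against 1.43 ± 0.234 FPKM in ESC (adjusted p = 0.0144). Car9 and Car14 also rose against EpiLC, by 2.97 ± 0.71 and 2.56 ± 0.70 (adjusted p = 0.0298 and 0.0471). The cytosolic Car2 rose against MEF at 120 ± 45.7 FPKM in EpiSC, against 3.33 FPKM in MEF (adjusted p = 0.0052), and the muscle enzyme gene Car3 fell, at 1.37 ± 0.665 against 41.4 FPKM (adjusted p = 0.00162).

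Of 14 genes of the alpha-v chain, other integrin beta chains and latent TGF-beta, 2 rose against ESC, 5 rose against EpiLC, and 7 fell and none rose against MEF. Ltbp1, which anchors latent TGF-beta in the matrix, rose by 2.53 ± 0.43 against ESC and by 2.46 ± 0.42 against EpiLC (edgeR adjusted p = 0.0043 and 0.00886). Itgb1, the common beta-1 chain, rose by 1.71 ± 0.43 against ESC (adjusted p = 0.0238). The ligand gene Tgfb2 had 2.81 ± 1.18 FPKM in EpiSC (SD, n = 5) against 0.114 ± 0.0202 FPKM in EpiLC (SD, n = 2), and Ltbp3 had 8.96 ± 4.74 against 0.747 ± 0.410 FPKM (adjusted p = 0.0419 and 0.0218). Against MEF the receptor gene Tgfbr2 was at 4.82 ± 2.75 against 68.8 FPKM, the ligand gene Tgfb3 at 2.40 ± 1.19 against 63.7 FPKM and Nrros, a carrier of latent TGF-beta, at 0.691 ± 0.316 against 4.16 FPKM (adjusted p = 0.0217, 0.0192 and 0.0254). These 3 genes were thus lower in EpiSC than in the 1 MEF library, whose spread was taken from the other cell types, while that library lay inside the EpiSC range for Itgb8. The fibroblast marker sum moved with this list, at 95.2 to 245 FPKM in EpiSC against 6.79 to 17.6 FPKM in EpiLC and 8171 FPKM in MEF, and its part in the list's counts was not tested.

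The other 4 lists held relatives of Fndc3c1, Kcnh8, Dynap and Eya4. Fndc4, a relative of Fndc3c1, had 19.4 ± 8.78 FPKM in EpiSC (SD, n = 5) against 3.31 ± 2.06 FPKM in EpiLC (SD, n = 2) and 1.64 ± 0.915 FPKM in ESC (SD, n = 2; edgeR adjusted p = 0.0223 and 0.00419), and Fndc5, the irisin precursor gene, rose by 1.80 ± 0.40 against ESC (adjusted p = 0.0152). Fndc1 rose by 3.999 ± 0.81 against EpiLC (adjusted p = 0.0164), and Fndc3b fell by 2.47 on the log2 scale against MEF (adjusted p = 0.00814). The channel gene Kcnh3 fell to 0.113 ± 0.0480 FPKM in EpiSC, against 0.570 ± 0.0915 FPKM in EpiLC and 1.95 ± 0.772 FPKM in ESC (adjusted p = 0.0248 and 0.00128), while Kcnh6 rose by 2.13 ± 0.63 against ESC (adjusted p = 0.0451). Against MEF, Kcnh4, Kcnh6 and Kcnh7 rose (adjusted p = 0.0456, 0.00492 and 0.0282), with Kcnh4 and Kcnh6 at 0 counts in MEF. Kcnh4 (0.371 ± 0.252 FPKM) and Kcnh7 (0.2675 ± 0.0968 FPKM) stayed under 1 FPKM in every EpiSC library. Of 9 dynactin subunits, Actr1b alone rose, by 0.56 ± 0.16 against ESC (adjusted p = 0.0415). In the EYA-SIX-DACH network of Eya4, Dach1 rose by 3.26 ± 0.98 against ESC (adjusted p = 0.0467). Against EpiLC, Dach2 rose by 2.54 ± 0.66 and Six4 fell by 1.61 on the log2 scale (adjusted p = 0.0398 and 0.0123). Six5 fell by 1.75 on that scale against MEF (adjusted p = 0.0125). Dach1 and Dach2 were low in EpiSC, at 0.597 ± 0.336 and 0.260 ± 0.0894 FPKM.

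**Figure D5:**
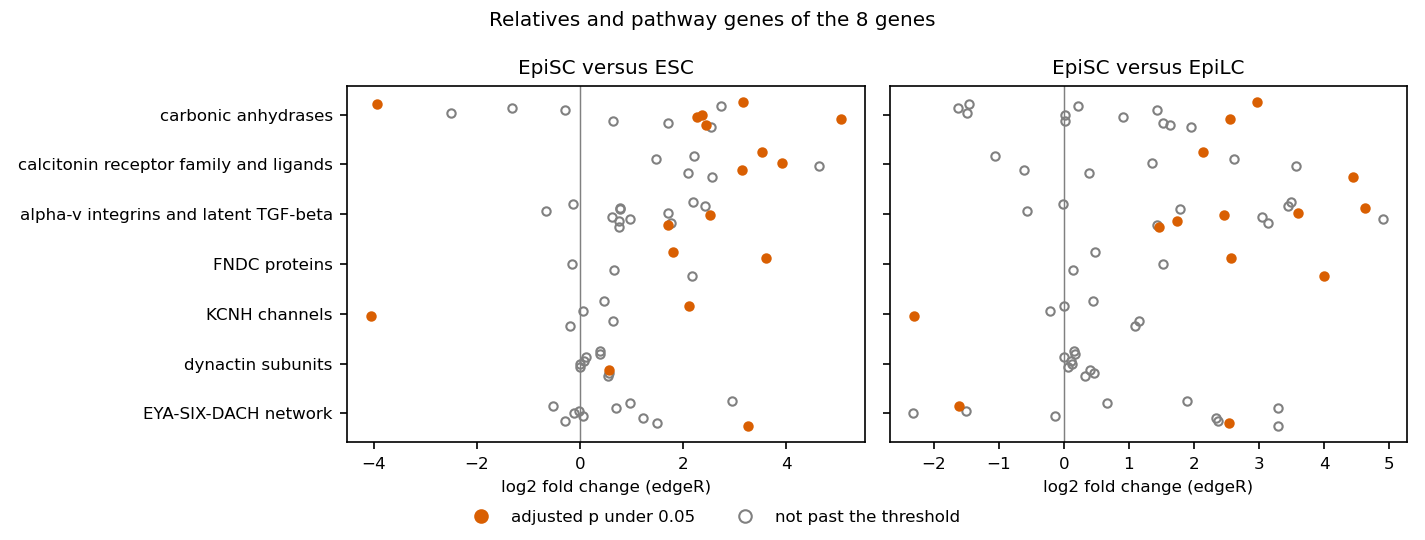
Log2 fold changes (edgeR) of the tested relatives and pathway genes in 7 lists, for EpiSC against ESC at the left and EpiSC against EpiLC at the right; filled points have an adjusted p under 0.05 and open points do not. The dynactin subunits lie close to 0 in both panels, while 15 genes rose and 2 fell against ESC and 12 rose and 2 fell against EpiLC.

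Genes with the most similar pattern were looked for among 13452 protein-coding genes by Pearson's r of log2(FPKM + 1) over the 10 libraries, which share cell types and lines, as a description. Nearest to Car4 were Prelid3a (r = 0.976), Stk26 (0.963) and Zdhhc6 (0.962), and Prelid3a stood at 6.51 ± 1.95 FPKM in EpiSC and 6.70 FPKM in EpiLC against 1.28 FPKM in ESC. Fndc3c1 was nearest to Prom1 (r = 0.984), the gene of the membrane protein prominin 1, with 7.98 ± 1.83 FPKM in EpiSC, 3.59 FPKM in EpiLC and 0.283 FPKM in ESC, and then to Slc45a1 (0.979) and Nap1l2 (0.975). These genes were picked by likeness over the same libraries, so EpiLC levels placed like those of Car4 and Fndc3c1 came with the choice. Pearson's r does not weigh the size of a change. Zdhhc6 had 8.51 FPKM in EpiSC, 7.96 FPKM in EpiLC and 5.41 FPKM in ESC.

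Calcr was nearest to Cd40 (r = 0.973), the gene of a surface receptor of the TNF receptor family, with 5.59 ± 1.63 FPKM in EpiSC, 0.827 FPKM in EpiLC and 0.613 FPKM in ESC, and then to Nfasc (0.969) and Panx2 (0.965). Dynap was nearest to Csf2 (r = 0.959), Ppbp (0.955) and Gzme (0.952), which encode secreted proteins and were at 0.916, 3.13 and 1.95 FPKM on average in EpiSC. Kcnh8 was nearest to Gpc2 (0.956), Ppp1r14c (0.933) and Acp1 (0.912). Its level stood out in 1 library, diploid p53-KO EpiSC (5.66 FPKM, against at most 1.999 FPKM in any other). Gpc2 differed little between cell types, at 0.971 ± 0.335 FPKM in EpiSC, 0.607 FPKM in EpiLC, 0.576 FPKM in ESC and 0.696 FPKM in MEF. For the genes on in MEF the nearest were Map4k5 (0.965), Chchd7 and Ift43 (0.963 each) for Itgb8, and Npy1r (0.971), Pdk2 (0.968) and Adcy4 (0.966) for Eya4. Fibin was nearest to Fkbp7 (0.982), Igsf10 (0.979) and Cdk14 (0.978), and Igsf10 stood at 2.01 ± 0.380 FPKM in EpiSC, 0.206 FPKM in EpiLC and 0.104 FPKM in ESC, against 33.2 FPKM in MEF (SDs over n = 5).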

How the data were processed

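RNA was prepared with Trizol and poly(A)-selected libraries were made, per the labels' protocols. The authors deposited raw counts per gene. The submitters' processing notes name HISAT2 2.0.5, featureCounts 1.5.0-p3 and the build mm10. The sources used here give no strand setting, and no exon of the 8 genes overlapped another gene's exon in GENCODE vM21. The deposited FPKM equalled count over gene length times a library constant (relative deviation at most 1.7e-08), so both tables hold 1 measurement.

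From the counts, edgeR 4.0.16 in R 4.3.3 was run with filterByExpr, TMM factors and the quasi-likelihood F test (Benjamini-Hochberg, threshold 0.05). The EpiSC groups were compared within the 5 EpiSC libraries, and the cell types in a fit of all 10 libraries with a mean for each cell type. A lone library was taken to vary as the replicated groups did. All 8 genes passed both filters. The scripts were tested on simulated data. Fold bounds used a floor of 3 counts per library over the group's mean floor in FPKM. DESeq2 1.42.0, its size factors, no filter, other FPKM thresholds, leaving out each library and, for cell types, wild-type libraries alone were the alternatives. Named genes were the 8, in each related list up to 3 genes past the threshold with the largest absolute log2 fold change per comparison, and the 3 most alike in pattern to each of the 8. The genes, lists and tests were chosen with earlier results of these data known. Values of Trp53 and of the markers Dppa5a, Esrrb, Nr0b1, Zfp42, Dnmt3b, Nodal, Col1a1, Dcn, Twist2, T, Eomes, Mixl1, Gsc and Mesp1 were added as checks of the labels. These markers were chosen after their values were seen.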

Additional observations from a re-analysis of the deposited data

Results flagged for a closer look

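Eya4 in haEpi1, at 0.279 FPKM, stood apart from the other 4 EpiSC libraries, which lay between 1.17 and 1.495 FPKM, in Dixon's test of the lowest value. Chance sets apart about 1 in 20 groups of this size, and 8 genes were looked at. The same library was also the lowest of the 5 for Itgb8 and Fibin.

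Other values were picked up because, between groups matched in ploidy or p53 label, libraries lay apart in opposite directions in different cell types, and these opposite directions were not tested. All of them rest on the 1 diploid p53-KO EpiSC library and on 1 library against 1 in ESC or EpiLC. Car4 was lower in both haploid p53-KO EpiSC libraries than in the diploid p53-KO library, but higher by 0.214 FPKM in haploid than in diploid ESC, where both levels were under 1 FPKM; the diploid female EpiSC library, labelled wild type, lay below both haploid EpiSC libraries. Fndc3c1 had the same directions, with a haploid minus diploid difference of 0.0943 FPKM in ESC, and its female EpiSC library also lay below both haploid ones. Between p53 labels, Fndc3c1 was higher in diploid p53-KO than in either wild-type EpiSC library, against a difference of -3.19 FPKM (p53-KO minus wild type) in EpiLC. The haploid p53-KO EpiSC libraries, which share the ploidy label of the EpiLC pair, averaged 13.8 FPKM against 16.5 FPKM in wild-type EpiSC, a log2 fold change of -0.25, and lay between the wild-type libraries. Kcnh8 was higher in diploid p53-KO EpiSC than in either wild-type library and differed by -0.65 FPKM in EpiLC. Its haploid p53-KO EpiSC libraries averaged 0.950 FPKM against 1.25 FPKM in wild-type EpiSC, a log2 fold change of -0.38, and also lay between the wild-type libraries.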

How the results depend on the processing

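No paired analysis was possible because the labels give no replicate numbers shared between groups. Of 412 recomputed fold changes of the 8 genes between cell types, 337 moved by less than the spread between replicates, 74 moved by more and 1 reversed, Eya4 in EpiLC over ESC, at -0.18 on the log2 scale without the diploid ESC library, 0.77 without the haploid ESC library and 0.22 with both, a value that rests on 7 ESC counts. The number of the 8 genes called in haploid against diploid p53-KO EpiSC was 0, and 1 (Kcnh8) without a low-count filter and 1 by DESeq2, with 0 to 1 when a library was left out. In diploid p53-KO against wild-type EpiSC it was 0 except without the male library, where the call for Car4 compared 1 library with 1. That number was 0 in haploid p53-KO against wild-type EpiSC under every alternative run. Related genes called against ESC numbered 17, and 7 to 17 when a library was left out. Against EpiLC they numbered 14, with 24 without a filter, 23 by DESeq2 and 4 to 19 when a library was left out. In EpiLC against ESC the count was 1, with 4 without a filter, 9 by DESeq2 and 0 to 2 when a library was left out, and against MEF it was 17, with 13 to 22. With wild-type libraries alone, which are fewer, it was 0 in each of these 4 comparisons. The causes of the other changes were not tested. At a threshold of 2 FPKM Eya4 was on in 1 of all libraries, MEF, against 5 at 1 FPKM. At 0.5 FPKM Kcnh8 was on in 5 of all libraries against 3 at 1 FPKM. These 5 took in the wild-type EpiLC library (0.731 FPKM) and left out the male EpiSC library (0.491 FPKM), so Kcnh8 was then on in EpiLC. In MEF, Fndc3c1 (0.607 FPKM) was on at 0.5 FPKM and Itgb8 (1.29 FPKM) was off at 2 FPKM. The on and off groups thus depend on the threshold. Depth limits the ESC and EpiLC values, many of which rest on 0 to 24 counts.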
